A study of Mus musculus with 6 samples.

Results

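The genes of the tricarboxylic acid (TCA) cycle and of pyruvate dehydrogenase were examined in subcutaneous white adipose tissue (scWAT) of the mouse. The members were 32 genes listed by symbol, of 55401 genes in the count files, and all 32 passed the filter on low counts. They comprised 28 genes of mitochondrial proteins and 4 genes of cytosolic enzymes that catalyse reactions also run inside mitochondria (*Aco1*, *Idh1*, *Mdh1* and *Got1*). Total RNA was sequenced from 3 control mice (YT-FF), which carried floxed alleles of *Yap* and *Taz* without Cre, and from 3 YT-AKO mice (*Yap*fl/fl/*Taz*fl/fl;AdipoqCre). All were males of 8 weeks, fed normal chow at room temperature. The floxed strains had a C57BL/6 and 129 background and the Cre strain a C57BL/6 background. Cre was driven by the promoter of *Adipoq*, a gene of mature adipocytes, so the other cells of the tissue were not targeted. The sample labels call the control mice WT.

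Pyruvate made in the cytosol enters mitochondria through the mitochondrial pyruvate carrier, a complex of the *Mpc1* and *Mpc2* products. The pyruvate dehydrogenase complex turns it into acetyl-CoA, and is switched off by the kinases *Pdk1* to *Pdk4* and switched on again by the phosphatases *Pdp1* and *Pdp2*. The TCA cycle then oxidises the acetyl group and passes electrons to the respiratory chain. In white fat, citrate that leaves the mitochondria also feeds fatty acid synthesis, and beige adipocytes, which arise within scWAT, hold more mitochondria than white adipocytes.

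The libraries held 17740987 to 21838493 counted fragments, and 16807 genes were tested between the groups. Levels are given as CPM, counts over the library's total after scaling with edgeR's TMM factors, whose aim is to keep the bulk of genes level between libraries. A gene was called at an adjusted p under 0.05 (quasi-likelihood test of edgeR, p-values adjusted by Benjamini and Hochberg's method over every gene tested). The targeted gene *Yap1* was lower in YT-AKO (log2 fold change -0.98, SE 0.167, adjusted p = 0.0179). *Wwtr1*, the symbol of *Taz*, was higher (0.89, SE 0.182, adjusted p = 0.0220), against its label. These are RNA counts over all exons of the gene and all cells of the tissue. At the protein level, the paper reports by immunoblot that YAP and TAZ were reduced in YT-AKO scWAT. The group is called the libraries labelled YT-AKO, and every direction given here rests on that label. The summed CPM of 12 skeletal muscle markers was 145 to 547 in YT-FF and 3841, 498 and 214 in the libraries labelled YT-AKO 1, 2 and 3. Of the 10 tested, 1 was called higher, against 12.6% of all tested genes. This was *Acta1*, at 131, 41.1 and 81.8 CPM in YT-FF. In the libraries labelled YT-AKO it was at 1109, 312 and 198 CPM (log2 fold change 2.67, SE 0.699, adjusted p = 0.0360). The summed CPM of 8 adipocyte markers was 10586 to 15777 in YT-FF and 17833 to 31655 in the libraries labelled YT-AKO. Of the 8, 2 were called higher (*Fabp4* and *Lipe*), against 12.6% of all tested genes. Much of the sum was *Fabp4*, at 4072 to 7199 CPM in YT-FF and 9159 to 20229 CPM in the libraries labelled YT-AKO. The groups overlapped for *Adipoq*, *Plin1*, *Cidec*, *Pparg* and *Lep* (log2 fold change of *Lep* -0.13), and neither these nor *Retn* were called. Of 7 B cell markers, 4 were called lower, against 9.01% of all tested genes, while the groups overlapped for *Cd79a*, *Cd79b* and *Pax5*. Of the 5 brown depot markers, *Zic1* had no count in any library and 4 were tested. *Lhx8*, *Ebf3* and *Epsti1* were not called (log2 fold changes -0.27, -0.14 and -0.16), and 1 was called higher, against 12.6% of all tested genes. The marker called was *Ucp1*, the uncoupling protein of brown and beige adipocytes, at 6.78, 3.69 and 9.84 CPM in YT-FF and at 144, 395 and 243 CPM in the libraries labelled YT-AKO (5.27, SE 0.513, adjusted p = 0.00782). By RT-qPCR and immunoblot, the paper also reports higher *Ucp1* in YT-AKO scWAT. The 6 epithelial markers summed to 3.66 to 5.10 CPM over the 6 libraries. In bulk tissue, a change in the number of cells of a type and a change in the RNA of each cell cannot be told apart. The part of these markers in the results below was not tested.

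The promoter windows of RefSeq (GRCm38.p6, 250 bases before to 50 bases after each start) of the members, called or not, were searched on both strands for 5 motifs. The motifs were chosen with the results known. Windows were found for 30 of the 32 members, 40 windows in all. The motif TGACGTCA, known as the cAMP response element, was in 4 of 40 windows and in 1.79% of all 32851 windows. These 4 windows belonged to 2 genes, *Mdh2* and *Ogdh*, since 3 are overlapping windows of *Ogdh* that hold the same match. No share by gene was computed for all windows. The NRF1 motif (GCGCA, any base, GCGC) was in 2 of 40 windows (5.0%, against 4.6% of all), those of *Sucla2* and *Dld*, and the GABPA motif CCGGAAGT in 1 of 40 (2.5%, against 3.89%), that of *Dlst*. The ERR motif TNAAGGTCA was in 0 of 40 windows (1.28% of all) and the TEAD motif ACATTCC in 0 of 40 (3.85% of all). No member window held more than 1 of the motifs, and a match is a description of letters, not of a bound site. The *Mdh2* and *Sucla2* matches lie inside the genes as counted, which start at chr5:135778480 and chr14:73525319. The stretches of 30 bases around the match in 3 members called higher are printed 5′ to 3′ on the strand of the gene, with the motif in capitals, and in *Sucla2* the motif reads on the opposite strand.
Mdh2 (chr5:135778511-135778540, plus strand): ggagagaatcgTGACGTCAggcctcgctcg
Ogdh (chr11:6291535-6291564, plus strand): acccaattctgTGACGTCAcgtcacgccca
Sucla2 (chr14:73552756-73552785, plus strand): caactgcgtctctGCGCCTGCGCggtgccc

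Of the 32 members, 15 were called higher in the libraries labelled YT-AKO (46.9%, against 12.6% of all tested genes). By edgeR, 0 were called lower, against 9.01% of all tested genes, and 1 (*Pdk1*) was lower at an unadjusted p under 0.05 (18.6% of all tested genes). DESeq2 (14.2% of all tested genes) and limma-voom (9.8%) also called 0 lower. The log2 fold change was above 0 in 27 members and below 0 in 5, with a median of 0.66, against -0.02 over all tested genes. The called members were found at most steps of the pathway, from pyruvate import (*Mpc2*) over pyruvate dehydrogenase (*Pdhb*, *Pdhx*, *Dlat*) to malate dehydrogenase (*Mdh2*). Under a stricter rule, an adjusted p below 0.01 with a log2 fold change above 1, 0 members were called higher by edgeR, against 0.0892% of all tested genes, while DESeq2 called 10 (7.96% of all tested genes) and limma-voom 0 (0.131%), and 18 members were higher at an unadjusted p under 0.05 (22.2% of all tested genes). In CPM, 19 members had all 3 libraries labelled YT-AKO above all 3 YT-FF libraries (25.7% of all tested genes did), 2 had all 3 below (25.8%), and in 11 the groups overlapped.

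**Figure D1:**
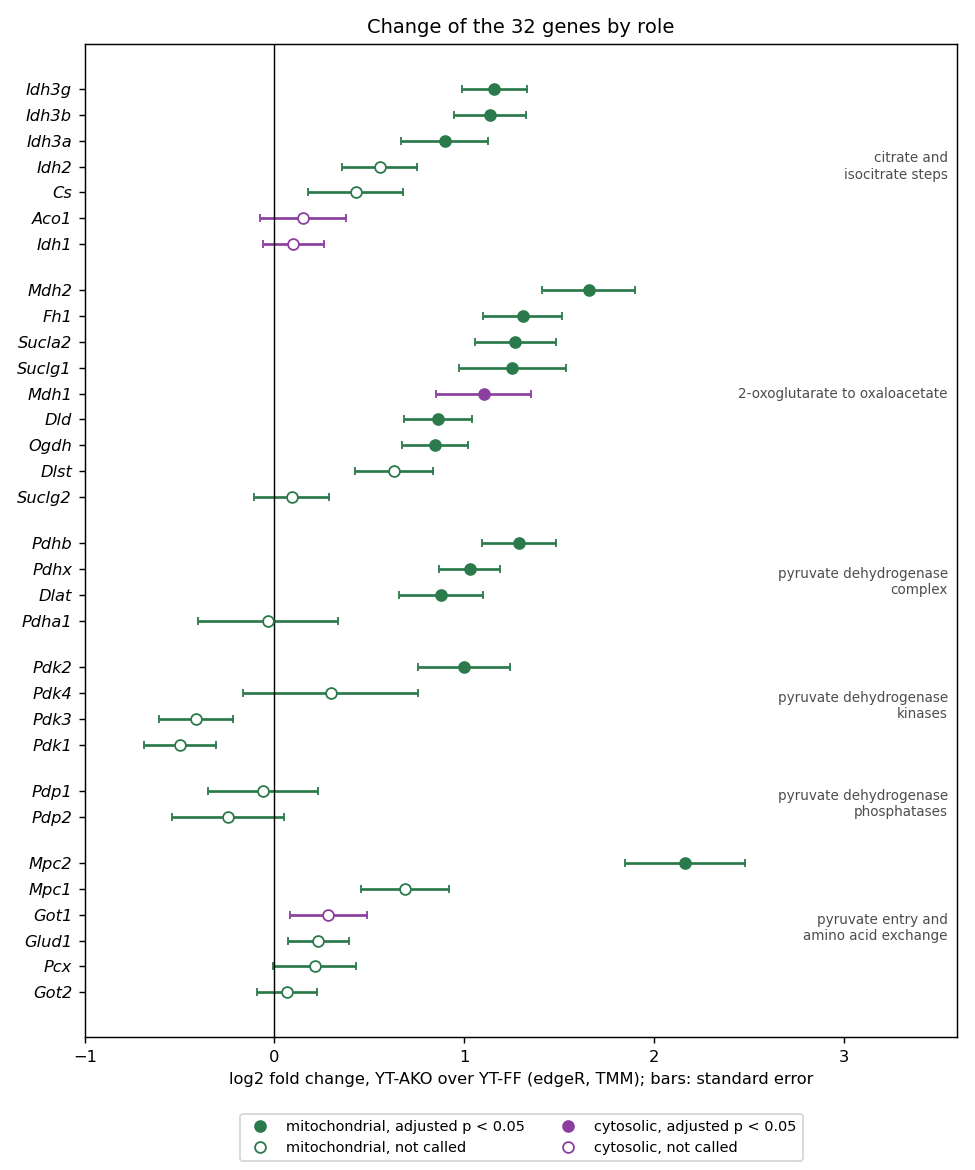
Log2 fold change of each of the 32 genes, libraries labelled YT-AKO over YT-FF (x axis), by role (rows, grouped). Points are edgeR estimates from 3 libraries a group and bars are 1 standard error. Filled points have an adjusted p under 0.05. The 15 filled points lie between 0.85 and 2.16, and open points lie on both sides of 0.

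The calls depended on the control libraries, and the separation of the groups on the scale. No member was called when YT-FF 1 or YT-FF 2 was left out, where 0% of all tested genes were called higher, so these counts say nothing of the members in particular. All 15 kept their direction, and their adjusted p then ran from 0.110 to 0.146. In CPM, each of the 15 had all libraries labelled YT-AKO above all YT-FF libraries, so leaving out 1 library could hardly reverse a direction. With library totals alone in place of TMM, 10 of the 15 were called higher (6.77% of all tested genes), while *Idh3a*, *Ogdh*, *Dld*, *Dlat* and *Pdk2* were not (adjusted p from 0.0628 to 0.127). In TPM, which sets each library to the same sum per length, 7 members had all libraries labelled YT-AKO above all YT-FF libraries and 7 had all below, against 7.52% and 54.5% of all tested genes.

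The steps from 2-oxoglutarate to oxaloacetate, where the cycle yields reducing equivalents and GTP or ATP, held the most called genes. These steps also held the most members. Of their mitochondrial members, 6 of 8 were called higher (75%, against 12.6% of all tested genes), with a median log2 fold change of 1.06. With the cytosolic *Mdh1*, which is not part of the cycle, 7 of 9 were called. The share called higher was also 75% in the pyruvate dehydrogenase complex. Mitochondrial malate dehydrogenase, *Mdh2*, was at 245, 248 and 321 CPM in YT-FF and at 666, 1109 and 792 CPM in the libraries labelled YT-AKO. The groups did not overlap, and YT-AKO 2 was the highest of the 6 libraries. Its level was 3.15-fold higher (log2 fold change 1.66, SE 0.246, adjusted p = 0.0171). *Fh1*, which encodes fumarase, was at 136, 148 and 190 CPM in YT-FF and at 335, 467 and 371 CPM in the libraries labelled YT-AKO. It was 2.48-fold higher (1.31, SE 0.210, adjusted p = 0.0177), again with no overlap and the top value in YT-AKO 2. *Ogdh* (449, 453 and 484 against 774, 782 and 933 CPM), the catalytic subunit of 2-oxoglutarate dehydrogenase, was 1.80-fold higher (0.85, SE 0.174, adjusted p = 0.0226). It varied little within each group. *Dld*, the dihydrolipoamide dehydrogenase that this enzyme shares with pyruvate dehydrogenase, rose from 191, 204 and 262 CPM to 402, 401 and 390 CPM (0.86, SE 0.180, adjusted p = 0.0231). The remaining subunit, *Dlst*, did not pass the test (log2 fold change 0.63, SE 0.205, adjusted p = 0.0608), but was called by DESeq2, with the length correction and without YT-AKO 2.

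Succinyl-CoA ligase joins a common alpha subunit, *Suclg1*, to either the ATP-forming beta subunit *Sucla2* or the GTP-forming beta subunit *Suclg2*. *Suclg1* was at 117, 130 and 218 CPM in YT-FF and at 316, 460 and 332 CPM in the libraries labelled YT-AKO (log2 fold change 1.25, SE 0.282, adjusted p = 0.0262). *Sucla2* was at 152, 156 and 222 CPM and then at 370, 486 and 424 CPM (1.27, SE 0.215, adjusted p = 0.0177). Both were above every YT-FF library in every library labelled YT-AKO. *Suclg2* was at 71.6, 75.8 and 73.7 CPM in YT-FF and at 91.2, 57.9 and 86.3 CPM in the libraries labelled YT-AKO (0.09, SE 0.196, adjusted p = 0.752), so its groups overlapped in CPM. In TPM, all libraries labelled YT-AKO were below YT-FF for *Suclg2* (54.5% of all tested genes were). Within each library, the log2 ratio of *Suclg2* to *Sucla2* per kilobase was -1.30, -1.26 and -1.81 in YT-FF and -2.23, -3.28 and -2.51 in the libraries labelled YT-AKO. The difference was -1.22 (SE 0.361), and the groups did not overlap. Its exact two-sided permutation p was 0.1, the smallest that 3 against 3 libraries can give (0.125 adjusted over the 5 ratios reported). *Suclg2* made up 26.9% ± 4.01 (SD, n = 3) of the 2 beta subunits' CPM per kilobase in YT-FF and 13.9% ± 4.21 (SD, n = 3) in the libraries labelled YT-AKO. *Suclg2* shares 21.8% of its 50-base words with *Gm15163*, so part of its fragments may not have been counted, in both groups.

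At the citrate and isocitrate steps, 3 of 7 members were called higher (42.9%, against 12.6% of all tested genes). These were the 3 subunits of the NAD-linked isocitrate dehydrogenase. *Idh3g* was at 196, 215 and 248 CPM in YT-FF and at 489, 462 and 522 CPM in the libraries labelled YT-AKO (log2 fold change 1.16, SE 0.172, adjusted p = 0.0171). *Idh3b* was at 204, 192 and 265 CPM and then at 482, 451 and 521 CPM (1.14, SE 0.190, adjusted p = 0.0177). *Idh3a*, the catalytic subunit, was at 186, 243 and 304 CPM and then at 475, 384 and 505 CPM (0.90, SE 0.227, adjusted p = 0.0334). The proportions of the 3 subunits moved little while their sum rose. *Idh3g* made up 42.2% ± 1.81 (SD, n = 3) of the summed CPM per kilobase in YT-FF and 44.0% ± 0.979 (SD, n = 3) in the libraries labelled YT-AKO. In the same order, *Idh3b* made up 33.2% ± 2.41 and 34.3% ± 0.480, and *Idh3a* fell from 24.6% ± 2.54 to 21.6% ± 1.44 (SD, n = 3 each). *Cs*, citrate synthase, the entry enzyme of the cycle, was at 435, 431 and 538 CPM in YT-FF and at 706, 426 and 757 CPM in the libraries labelled YT-AKO. YT-AKO 2 lay below all YT-FF libraries, and *Cs* did not pass the test (0.43, SE 0.252, adjusted p = 0.234). Without YT-AKO 2, *Cs* was called higher.

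**Figure D2:**
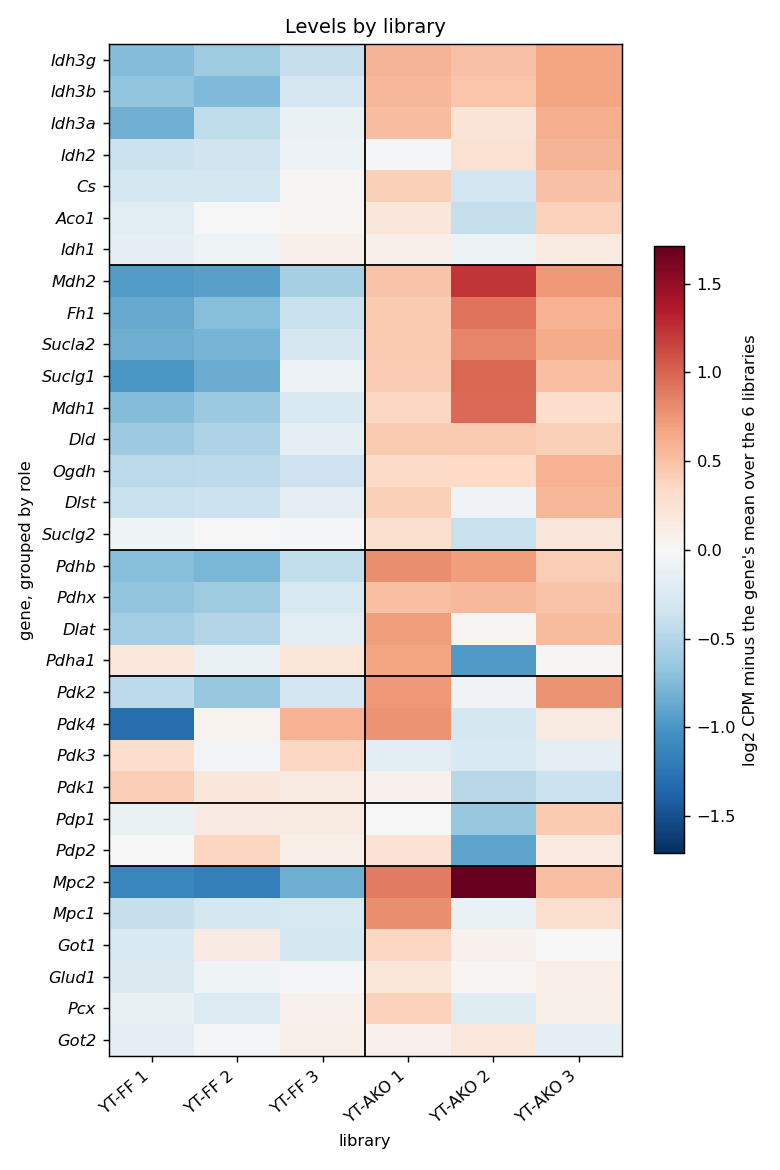
Log2 CPM of the 32 genes (rows, grouped by role, lines between roles) in each of the 6 libraries (columns) minus the gene's mean over the libraries. The called genes are blue in the 3 YT-FF libraries and red in most libraries labelled YT-AKO, and YT-AKO 2 has both the reddest and the bluest cells of its group (*Mpc2* and *Pdha1*).

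YT-AKO 2 differed from the other libraries of its group. Over all genes, it held the most counted fragments of the 6 libraries but had a count in only 20501 genes, against 22810 to 24576. Its TMM factor was the lowest (0.777, against 0.954 to 1.16). It was the lowest of the 3 in 19 of the 32 members, including 14 of the 17 members not called, and the highest in 8, including 7 of the 15 called. The median deviation of the members from their means over all libraries was 0.42, 0.05 and 0.44 (log2) in YT-AKO 1, 2 and 3. Without YT-AKO 2, 18 members were called higher (16.9% of all tested genes), among them all 15. Without YT-AKO 1, 12 of the 15 were still called (12.7% of all tested genes were called higher), while *Idh3a*, *Dlat* and *Pdk2* were not. Across all tested genes, and genes are no independent replicates, the log2 fold change fell with gene length (Spearman's rho -0.376). With a correction for gene length, all 15 were still called (10.1% of all tested genes were called higher). The summed exons of the called members ranged from 2662 to 7344 bases (median 3861) and those of the members not called from 2082 to 9559 bases (median 4496). The called members were thus shorter at the median.

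Mitochondrial enzymes were set beside their cytosolic counterparts. Among mitochondrial members, 14 of 28 were called higher (50%, median log2 fold change 0.77), against 12.6% of all tested genes. Among cytosolic members it was 1 of 4 (25%, median 0.22), which was *Mdh1*. The cytosolic members are few, and the mitochondrial members include kinases, phosphatases and carriers. These 2 counts therefore do not compare counterparts and cannot tell a reaction from a compartment. Cytosolic malate dehydrogenase *Mdh1*, which works with *Mdh2* in the malate-aspartate shuttle, was at 330, 356 and 462 CPM in YT-FF and at 705, 1081 and 681 CPM in the libraries labelled YT-AKO (1.10, SE 0.249, adjusted p = 0.0263). The log2 ratio of *Mdh2* to *Mdh1* per kilobase was -0.85, -0.94 and -0.95 in YT-FF and -0.50, -0.38 and -0.20 in the libraries labelled YT-AKO. *Mdh2* thus gained on *Mdh1* in every library of the group, by 0.55 (SE 0.0927). *Mdh1* shares 1.95% of its exon bases with *Wdpcp*.

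*Idh2* and *Idh1* encode the mitochondrial and cytosolic NADP-linked isocitrate dehydrogenases. *Idh2* was at 120, 123 and 145 CPM in YT-FF and at 152, 186 and 232 CPM in the libraries labelled YT-AKO (0.55, SE 0.197, adjusted p = 0.0751). *Idh1* was at 223, 237 and 266 CPM and then at 265, 235 and 277 CPM (0.10, SE 0.161, adjusted p = 0.671). Neither was called, and in CPM only *Idh2* had groups that did not overlap. In TPM the *Idh2* groups overlapped, while all libraries labelled YT-AKO were below YT-FF for *Idh1* (54.5% of all tested genes were). *Idh2* was called higher by DESeq2 (adjusted p = 0.0422) and without YT-AKO 1. Their log2 ratio was -0.80, -0.85 and -0.78 in YT-FF and -0.71, -0.24 and -0.16 in the libraries labelled YT-AKO, a difference of 0.44 (SE 0.171). The gap between the groups was narrow, since YT-AKO 1 lay near YT-FF.

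*Aco1*, the cytosolic aconitase, also regulates iron metabolism as an RNA-binding protein. It was at 226, 256 and 264 CPM in YT-FF and at 294, 195 and 339 CPM in the libraries labelled YT-AKO (0.15, SE 0.227, adjusted p = 0.642). The groups overlapped, since YT-AKO 2 was the lowest of all libraries and the others of its group were the highest.

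The aspartate aminotransferases *Got2* (mitochondrial) and *Got1* (cytosolic) also serve the malate-aspartate shuttle. *Got2* was at 43.4, 47.2 and 52.1 CPM in YT-FF and at 51.1, 54.7 and 43.3 CPM in the libraries labelled YT-AKO (0.06, SE 0.158, adjusted p = 0.783). *Got1* was at 13.3, 17.5 and 12.9 CPM and then at 20.5, 16.8 and 16 CPM (0.28, SE 0.204, adjusted p = 0.321). In TPM, all libraries labelled YT-AKO were below YT-FF for *Got2* (54.5% of all tested genes were), and in CPM the groups overlapped for both genes. Their log2 ratio was 0.78, 0.50 and 1.09 in YT-FF and 0.39, 0.78 and 0.51 in the libraries labelled YT-AKO, a difference of -0.23 (SE 0.204) with an exact permutation p of 0.4, the only overlap among the 5 ratios. *Got2* shares 47.2% of its 50-base words with other genes, among them *Got2-ps1*, so its count is uncertain. For the ratios of isocitrate dehydrogenase and malate dehydrogenase the exact two-sided permutation p was 0.1, the smallest possible (0.125 adjusted over the 5).

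**Figure D3:**
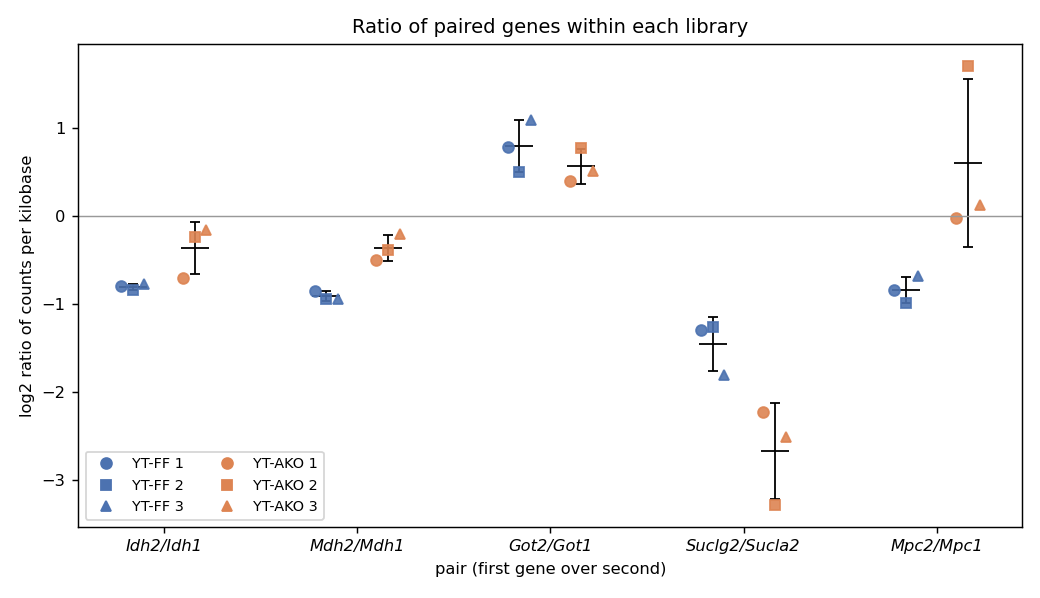
Log2 ratio of the counts per kilobase of 2 genes within each library (y axis) for the 5 ratios (x axis). Symbols are libraries, and horizontal lines with bars are the mean and SD of 3 libraries a group. The groups are separate in 4 ratios and overlap in *Got2*/*Got1*.

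Of the 4 members of the pyruvate dehydrogenase complex, 3 were called higher (75%, against 12.6% of all tested genes). *Pdhb*, the beta subunit of the E1 component, was at 245, 236 and 302 CPM in YT-FF and at 703, 667 and 543 CPM in the libraries labelled YT-AKO, 2.44-fold higher (log2 fold change 1.29, SE 0.194, adjusted p = 0.0171). *Dlat*, the E2 component, was at 151, 161 and 198 CPM and then at 375, 233 and 332 CPM (0.88, SE 0.222, adjusted p = 0.0332). *Pdhx*, the protein that holds E3 in the complex, was at 42.0, 43.9 and 55.8 CPM and then at 96.0, 99.0 and 94.0 CPM (1.03, SE 0.162, adjusted p = 0.0177). The 3 libraries labelled YT-AKO lay close together for *Pdhx* and spread more for *Dlat*. *Pdha1*, the alpha subunit that carries the phosphorylation sites, was at 360, 293 and 366 CPM in YT-FF and at 508, 163 and 323 CPM in the libraries labelled YT-AKO. The libraries labelled YT-AKO thus held both the highest and the lowest value, and the fold change was -0.04 (log2, SE 0.370, adjusted p = 0.950). Without YT-AKO 2 it was 0.29. *Pdha1* shares 16.1% of its exon bases with *Map3k15*, and fragments there were not counted.

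The 4 kinases that inactivate the complex did not move together. *Pdk2* was at 94.4, 82.2 and 103 CPM in YT-FF and at 216, 124 and 220 CPM in the libraries labelled YT-AKO and was called higher (1.0, SE 0.243, adjusted p = 0.0303). *Pdk4*, which fasting and fatty acids induce in many tissues, was at 121, 306 and 445 CPM and then at 502, 239 and 329 CPM (0.30, SE 0.463, adjusted p = 0.655). The YT-FF libraries alone spanned most of that range for *Pdk4*. *Pdk1*, known as a target of hypoxia-inducible factor, was at 138, 118 and 114 CPM and then at 108, 74.0 and 80.0 CPM (-0.50, SE 0.190, adjusted p = 0.0904). *Pdk3* was at 14.1, 11.1 and 14.8 CPM and then at 10, 9.61 and 10.3 CPM (-0.42, SE 0.195, adjusted p = 0.147). For both genes every library labelled YT-AKO was lower than all of YT-FF, but neither was called; *Pdk1* was called lower without YT-AKO 1. With library totals alone in place of TMM, both were called lower (16.8% of all tested genes), on a scale where the median of all tested genes was -0.34.

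Among the kinases, *Pdk4* held the largest share of their summed CPM per kilobase in both groups, 58.5% ± 16.8 (SD, n = 3) in YT-FF and 57.2% ± 4.87 (SD, n = 3) in the libraries labelled YT-AKO. *Pdk2* made up 23.9% ± 8.84 and 33.8% ± 4.82, and *Pdk1* 13.3% ± 6.29 and 6.59% ± 1.14 (SD, n = 3 each). YT-FF 1, with its low *Pdk4*, had the highest *Pdk1* and *Pdk2* shares of the control libraries.

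Neither phosphatase passed the test. *Pdp1*, the isoform that calcium stimulates, was at 11, 13.1 and 13.3 CPM in YT-FF and at 12, 7.55 and 16.3 CPM in the libraries labelled YT-AKO (-0.06, SE 0.288, adjusted p = 0.889). *Pdp2* was at 30.5, 38.8 and 32.6 CPM and then at 35.9, 16.1 and 33.9 CPM (-0.25, SE 0.296, adjusted p = 0.555). The low value of both genes was that of YT-AKO 2. Without it, the log2 fold changes were 0.18 and 0.04.

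**Figure D4:**
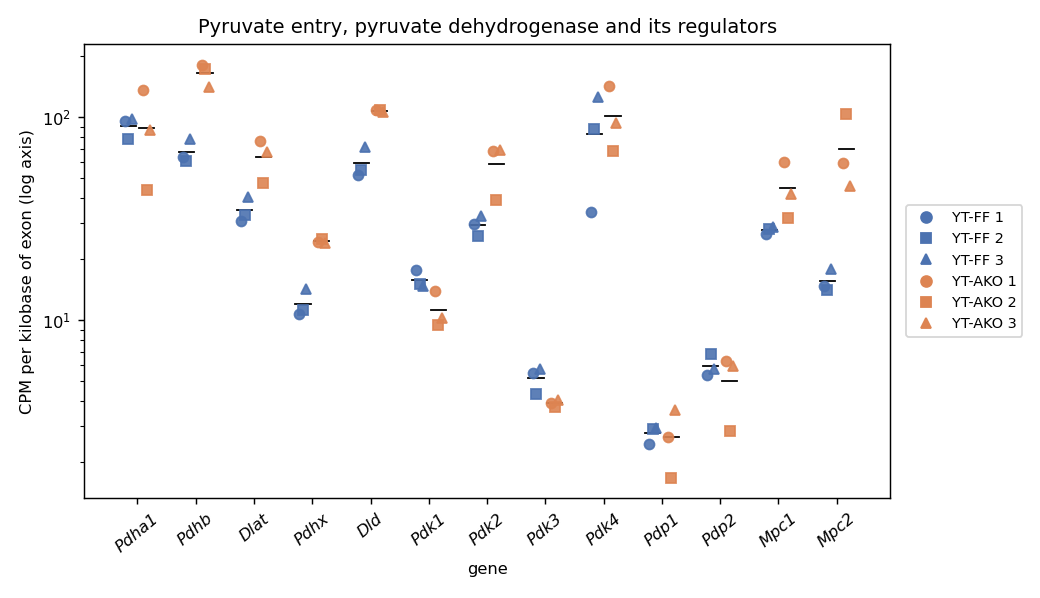
CPM per kilobase of exon (log axis) of the pyruvate carrier, the subunits of pyruvate dehydrogenase, its kinases and its phosphatases in each library. Symbols are libraries and black lines are group means. *Pdhb*, *Dlat*, *Pdhx*, *Dld*, *Pdk2*, *Mpc1* and *Mpc2* are separated upwards and *Pdk1* and *Pdk3* downwards (25.7% and 25.8% of all tested genes were). In TPM, only *Pdhb* and *Mpc2* of the genes shown were separated upwards, and *Pdk1*, *Pdk3* and *Pdp2* downwards (7.52% and 54.5%).

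*Mpc2* had the largest log2 fold change of the 32 members. It was at 108, 104 and 131 CPM in YT-FF and at 435, 767 and 336 CPM in the libraries labelled YT-AKO, 4.48-fold higher (2.16, SE 0.318, adjusted p = 0.0171). Its partner *Mpc1* was at 55.2, 58.6 and 59.9 CPM and then at 126, 66.7 and 87.5 CPM (0.69, SE 0.234, adjusted p = 0.0674). The groups did not overlap for either gene, but YT-AKO 2 was the highest library for *Mpc2* and the lowest of its group for *Mpc1*. The log2 ratio of *Mpc2* to *Mpc1* per kilobase was -0.85, -0.99 and -0.69 in YT-FF and -0.03, 1.70 and 0.12 in the libraries labelled YT-AKO. The difference was 1.44 (SE 0.561, exact permutation p = 0.1, 0.125 adjusted over the 5 ratios), 0.89 without YT-AKO 2 and 2.04 with the length correction. *Mpc1* was called higher by DESeq2, without a filter and without YT-AKO 2. It shares 23.1% of its exon bases with *4930506C21Rik* and 29.6% of its 50-base words with other genes, so its level is uncertain.

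The other routes into the cycle were not called. *Pcx*, pyruvate carboxylase, which replenishes oxaloacetate, ranged from 971 to 1203 CPM in YT-FF and from 995 to 1508 CPM in the libraries labelled YT-AKO (0.21, SE 0.220, adjusted p = 0.493). *Glud1*, glutamate dehydrogenase, ranged from 257 to 302 CPM and from 312 to 353 CPM (0.23, SE 0.160, adjusted p = 0.305). The *Glud1* groups did not overlap in CPM, while in TPM all libraries labelled YT-AKO were below YT-FF, so its direction depends on the scale.

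Per kilobase of exon, *Pcx* had the highest level of the 32 members in YT-FF (226 ± 24.8 CPM per kilobase, SD, n = 3), followed by *Mdh1* (144 ± 26.2), and *Pdp1* had the lowest (2.76 ± 0.282). In the YT-FF order, neighbours were apart without overlap of their libraries at 5 places, after *Pcx*, *Mdh1*, *Dlst*, *Got2* and *Pdk3*, and all other neighbours overlapped. In the libraries labelled YT-AKO, *Mdh1* was the highest (309 ± 84.1), and *Mdh2* moved from place 9 (76.2 ± 12) to place 3 (240 ± 64.2). *Mpc2* moved from place 26 (15.6 ± 1.99) to place 19 (69.8 ± 30.7), and *Pdha1* from place 3 (90.9 ± 10.9) to place 15 (88.7 ± 46.2).

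The rest of the cycle and of pyruvate handling was read from a list of 30 further genes, of which 26 were tested. Of these, 11 were called higher (12.6% of all tested genes) and 1 lower (9.01%), with a median log2 fold change of 0.48, against -0.02 over all tested genes. All 4 subunits of succinate dehydrogenase, the enzyme that joins the cycle to the respiratory chain, were called higher, by 0.78 (*Sdha*), 1.75 (*Sdhb*), 1.14 (*Sdhc*) and 1.35 (*Sdhd*) on the log2 scale, with adjusted p from 0.0166 to 0.0312. *Lias*, *Lipt1* and *Lipt2*, which build the lipoyl group that *Dlat* and *Dlst* need, were also called higher (0.70, 1.39 and 1.35), although *Lipt2* was at 2.30 to 5.20 CPM in YT-FF. The lactate dehydrogenase genes *Ldha* (1.02, adjusted p = 0.0249) and *Ldhb* (1.91, adjusted p = 0.0166) were higher, *Ldhb* from 47.6, 57.3 and 79.6 CPM to 187, 295 and 210 CPM. The citrate carrier *Slc25a1* (1.11) and the 2-oxoglutarate carrier *Slc25a11* (1.0) were called, while 4 other tested carriers were not. *Dhtkd1*, a paralog of *Ogdh* in lysine breakdown, was the gene called lower, at 22.2, 22.3 and 22.2 CPM in YT-FF and 14.4, 7.37 and 13.2 CPM in the libraries labelled YT-AKO (-0.93, SE 0.260, adjusted p = 0.0415). *Pdpr*, the regulatory subunit of the phosphatase, was at 38.7, 38.4 and 33.3 CPM and then at 14.1, 1.42 and 15.8 CPM. Its groups did not overlap, but it was not called (-1.82, SE 0.670, adjusted p = 0.0834). *Acly*, *Me1* and *Pck1*, cytosolic enzymes that draw on cycle intermediates, did not pass the test (0.47, 0.27 and 0.45). Without YT-AKO 1, *Acly* was at -0.13 and *Me1* at -0.093.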

How the data were processed

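The data were RNA-seq libraries of scWAT, 3 for each genotype, assigned to YT-FF or YT-AKO from their labelled genotype. The authors aligned paired ends to mm10 (HISAT2) and assigned fragments to GENCODE vM25 exons (featureCounts 2.0.1), ignoring strand and dropping fragments with multiple alignments or shared by overlapping genes. The deposited values are raw counts per gene. Total counts of the YT-FF libraries, in order of number, were 20500634, 19718848 and 18253559. Those of YT-AKO were 18059038, 21838493 and 17740987. Nothing says whether the 3 samples of a group were prepared independently, so p-values measure the spread between these samples.

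Counts were tested in R 4.3.3 with edgeR 4.0.16 (TMM, filterByExpr with minimum count 10 and minimum total 15, quasi-likelihood test, Benjamini-Hochberg adjustment over 16807 genes). The standard error is the log2 fold change divided by the square root of the F statistic. Levels between genes used counts per kilobase of summed exons. Symbols and shared exons or 50-base words came from GENCODE vM21, which matched 55141 of 55401 identifiers. Ratios were compared by exact two-sided permutation tests. The tests were tested on simulated data with known changes.

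The members, lists and motifs were chosen with earlier results of these data known. Every member is named. Values in each library were given for both genes of the cytosolic and mitochondrial pairs, the kinases and phosphatases, members with a log2 fold change below 0 and the 12 called members of largest log2 fold change; those of *Dlat*, *Dld*, *Ogdh*, *Cs*, *Suclg2*, *Mpc1* and of genes outside the members were added after their values were seen. The alternatives were DESeq2 1.42.0, limma-voom (limma 3.58.1), 3 other normalizations, 2 other filters, robust estimation, a replicate block, a gene length correction (spline with 6 degrees of freedom), block and correction combined, and omission of each library. After the data were seen, TPM and the correction for length with YT-AKO 2 left out were added. Results of 1 listed gene outside the members, its ratio included, are not reported here.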

Additional observations from a re-analysis of the deposited data

How the results depend on the processing

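The 15 members called higher kept their direction under all 18 alternatives. They were picked by their call in these same libraries, so the kept direction is no independent support. DESeq2 called 18 members higher (18% of all tested genes), limma-voom 15 (11.8%), library totals alone 10 (6.77%) and the length correction 16 (10.1%). Leaving out 1 library gave 0 to 18 members called higher and 0 to 1 lower, while 0% to 16.9% of all tested genes were called higher. The 0 came without YT-FF 1 or YT-FF 2, where the share of all genes was 0%. *Dlat* and *Pdk2* were lost without YT-FF 3, YT-AKO 1 or YT-AKO 3, *Ogdh* without YT-FF 3, and *Idh3a* without YT-AKO 1 or YT-AKO 3. Library totals alone called 2 lower and moved the median of the members to 0.36. Under the stricter rule, the members called higher numbered 10 with DESeq2 (7.96% of all tested genes), 10 without a filter (4.05%) and 12 with the length correction without YT-AKO 2 (2.59%), and 0 to 11 with 1 library left out (0% to 3.57%). In TPM, 7 members were separated upwards and 7 downwards, in place of 19 and 2.

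The replicate numbers did not pair the samples (correlations of the deviations of same-numbered libraries 0.13, -0.12 and -0.09). The replicate block left 0 members called higher (adjusted p of the 15 from 0.0584 to 0.0726), and 0 with the length correction as well, where 0.196% and 0.482% of all tested genes were called in either direction. It left 0 genes of the further list called in either direction, and 1 higher and 0 lower with the length correction. The block cannot change the values of the ratios, and its smallest p is 0.25. The length correction moved *Mpc2*/*Mpc1* from 1.44 to 2.04 and *Mdh2*/*Mdh1* from 0.55 to 0.72.

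For the further list, library totals alone called 7 genes higher (6.77% of all tested genes). DESeq2 (14.2%), limma-voom (9.8%) and no filter (5.86%) each called 2 lower, the length correction 0 (4.54%), and the length correction without YT-AKO 2 called 2 (8.47%). Leaving out 1 library gave 0 to 12 higher and 0 to 2 lower (0% to 16.9% and 0% to 14% of all tested genes). Under the stricter rule DESeq2 called 9 higher, no filter 6, the length correction without YT-AKO 2 called 4 and 1 lower, and leaving out 1 library gave 0 to 6 higher and 0 to 1 lower.

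Members that were not called changed sign. With library totals alone the log2 fold changes were -0.15 (*Aco1*), -0.22 (*Idh1*), -0.21 (*Suclg2*), -0.092 (*Pcx*), -0.043 (*Got1*), -0.27 (*Got2*) and -0.088 (*Glud1*). With the length correction they were -0.058 (*Idh1*) and 0.021 (*Pdp1*), with the block as well -0.060 (*Idh1*), and the *Got2*/*Got1* ratio was 0.10. With the length correction without YT-AKO 2 they were 0.29 (*Pdha1*), 0.24 (*Pdp1*) and 0.16 (*Pdp2*). With 1 library left out the ranges were -0.48 to 0.29 (*Pdha1*), -0.077 to 0.74 (*Pdk4*), -0.013 to 0.16 (*Got2*), -0.024 to 0.27 (*Suclg2*), -0.34 to 0.18 (*Pdp1*), -0.44 to 0.038 (*Pdp2*) and -0.018 to 0.35 (*Aco1*). The cause was not tested. With 3 libraries a group, the exact tests could not go below 0.1.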

Other observations

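Nicotinamide nucleotide transhydrogenase (*Nnt*), a mitochondrial source of NADPH that C57BL/6J mice lack in part of its exons, had 4, 2 and 6 counts in the control libraries, against 3, 9 and 6 in those labelled YT-AKO, and was below the filter. Its symbol belongs to 2 identifiers that share exons, so fragments there were not counted and the level is uncertain. Also below the filter were *Ogdhl* (5, 3 and 8 against 7, 0 and 2 counts), *Slc25a18* (5, 9 and 8 against 15, 6 and 6 counts) and *Slc25a21* (3, 7 and 3 against 6, 7 and 3 counts).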
